A study of Homo sapiens with 6 samples.

Results

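Protocadherins are the largest group of cadherin-type adhesion molecules, and their counts were compared between WM164 melanoma cells that carry an empty expression vector (EV) and WM164 cells that carry an HDAC8 expression vector. The members were the protein-coding genes whose symbol begins with PCDH, 66 of the 60504 genes in the table (19664 of them protein coding). Of these, 53 belong to the clustered families, with 15 PCDHA, 16 PCDHB and 22 PCDHG genes, and 13 are non-clustered. WM164 is a human melanoma cell line with a BRAF V600E mutation, which both groups share. There were 3 EV libraries and 3 libraries labelled HDAC8. Per the study's methods the plasmids were introduced by lipid transfection with selection in hygromycin, and the cells were not described as single clones. The labels number the replicates as bioreps without saying whether they came from separate cultures, so p-values measure only the spread between these libraries, which may be technical.

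As background, clustered protocadherins are single-pass membrane proteins with cadherin repeats that bind the same isoform on a neighbouring cell. Each PCDHA and PCDHG gene has its own promoter and its own large first exon, which codes for the extracellular part and is spliced to a set of small constant exons shared by the whole cluster, whereas each PCDHB gene is a single exon. In neurons a cell picks a few of these promoters, a choice that involves CTCF, cohesin and DNA methylation, and HDAC8 is the deacetylase that acts on the cohesin subunit SMC3. Non-clustered protocadherins sit at separate places in the genome and have their own cytoplasmic tails.

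In the annotation used here (GENCODE 44, GRCh38) the 3 clusters lie one after another on the plus strand of chromosome 5. PCDHA spans chr5:140786136-141012347, PCDHB spans chr5:141051374-141249365 and PCDHG spans chr5:141330514-141512977. Promoter sequence is shown because each PCDHA, PCDHB and PCDHG transcript starts at its own promoter. Of the 66 members, 58 had a RefSeq promoter window (GRCh38.p14), which runs from 250 bases before to 50 after a transcription start. A member with several windows was counted once, with a match in any of them. PCDHA3, PCDHA13, PCDHB6, PCDHB11, PCDHGA12, PCDHGC5, PCDH10 and PCDH20 had none. The 4 letters CGCT are shown because they are the core of the conserved element of clustered protocadherin promoters. A match to these letters alone does not show that element. On either strand CGCT was found in 46 of the 47 clustered members with a window and in 10 of the 11 non-clustered ones, beside 70.008% of all 35116 windows. The last share counts windows rather than genes, and a member with several windows has more chances of a match. The following 64-base stretches are on the plus strand, with the CGCT they are aligned on in capitals. PCDHGB5 and PCDHGC3 hold another in lower case, and PCDHGA10 holds another on the minus strand, read here as agcg. The stretches were chosen to show members whose counts are described next.

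PCDHA4 (chr5:140806965-140807028, CGCT 73 bases before the start): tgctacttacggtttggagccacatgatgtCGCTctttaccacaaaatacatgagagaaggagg
PCDHB15 (chr5:141245300-141245363, CGCT 65 bases before the start): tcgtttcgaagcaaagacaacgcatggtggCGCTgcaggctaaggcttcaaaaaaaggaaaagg
PCDHGA3 (chr5:141343753-141343816, CGCT 46 bases before the start): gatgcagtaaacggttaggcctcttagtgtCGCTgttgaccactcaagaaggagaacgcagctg
PCDHGB5 (chr5:141397849-141397912, CGCT 68 bases before the start): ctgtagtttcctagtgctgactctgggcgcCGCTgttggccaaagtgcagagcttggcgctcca
PCDHGA10 (chr5:141412917-141412980, CGCT 40 bases before the start): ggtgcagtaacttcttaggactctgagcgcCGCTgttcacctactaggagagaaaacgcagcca
PCDHGC3 (chr5:141475866-141475929, CGCT 70 bases before the start): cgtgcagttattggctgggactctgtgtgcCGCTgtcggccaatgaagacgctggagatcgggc

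The letters around the core differed between the families. The 8-letter word ATGTCGCT stood in 9 of 13 PCDHA members with a window and in 0.234% of all windows. GTGGCGCT stood in 13 of 14 PCDHB members (1.15% of all windows), and GCCGCTGT in 11 of 20 PCDHG members (1.635% of all windows). These words were picked as the most shared of each family, overlap the CGCT core and were searched on both strands. PCDHGB5, PCDHGA10 and PCDHGC3 carry the PCDHG word, and PCDHGA3 does not. A shortened CTCF motif, CNAGNNGGC, was found in 4 of the 47 clustered and 7 of the 11 non-clustered members with a window, and in 24.559% of all windows. That share, too, counts windows rather than genes. CTCF binding was not tested, and sequence beyond the windows was not searched. PCDHGC3, which was higher in the libraries labelled HDAC8, and PCDHGA3 and PCDHGB5, which were lower, all carry the core. So do 46 of the 47 clustered members with a window, so carrying it does not tell higher members from lower ones.

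Total counts ran from 34741083 to 42041462 per library and overlapped between the groups. HDAC8, the gene on the vector, comes first. It had 384, 404 and 479 normalized counts in EV and 485, 446 and 474 in the libraries labelled HDAC8 (log2 fold change 0.15, DESeq2 adjusted p = 0.856). The groups overlapped, so the RNA count of HDAC8 did not set the groups apart, and every direction given here is one between libraries by label. The study probed melanoma cells with either vector for HDAC8 protein by immunoblot, which these RNA counts do not measure. Of 8 melanocyte and melanoma markers, all 8 were detected. Their sum was 244961 to 328761 normalized counts in EV and 137043 to 182217 in the libraries labelled HDAC8. This sum was mostly PMEL (means of 200032 in EV and 110587 in the other group). PMEL, MLANA, TYR, DCT and S100B were lower at a DESeq2 adjusted p under 0.05. MITF, SOX10 and TYRP1 were not (DESeq2 adjusted p = 0.544, 0.211 and 0.303). Of 5 leukocyte markers 3 had at least 10 counts, and their sum of 2357 to 3355 in EV and 4322 to 6279 in the other group was mostly CD68, while CD3E was at 0 in EV and at 50.1 to 91.1 in the other group. Fibroblast markers (4 of 5) summed to 2347 to 2869 in EV and 1150 to 2188 in the libraries labelled HDAC8, mostly LUM, with DCN at 0. The sums of 5 endothelial markers (98 to 203 in EV, 123 to 263 in the other group; CDH5 at 0), 5 keratinocyte markers (40.9 to 112 and 0 to 41.0; KRT1 at 0) and 5 neuron markers (349 to 437 and 434 to 538) were low beside those of melanoma. The part of these markers in the protocadherin results was not tested, and in bulk samples fewer cells of a type and less RNA per cell cannot be told apart. Libraries HDAC8 2 and HDAC8 3 differed least from each other (chi-square over degrees of freedom across genes of 26), and HDAC8 1 stood further from both (153.4 and 101.7).

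PCDHG was the only one of the 3 clusters with called members. It changed in both directions, with PCDHGA12 and PCDHGC3 rising 14.3-fold and 5.17-fold in the libraries labelled HDAC8, while PCDHGA3 and PCDHGB5 fell. Among the non-clustered genes PCDH18 fell, and no PCDHA or PCDHB gene was called in either direction by DESeq2, edgeR or limma-voom (at an unadjusted p under 0.05 in DESeq2, 1 PCDHA gene was higher, and 0 PCDHB genes were higher or lower). A gene was called when its adjusted p in the two-sided Wald test of DESeq2 was under 0.05 over all genes and the size of its log2 fold change reached 0.58. Of the 66 members, 59 were tested (total count of at least 10), 47 got an adjusted p, 3 were called higher and 4 lower. Over all 21021 genes with an adjusted p, 11% were called, 5.57% as higher and 5.44% as lower. By family the called members were 5 of 22 in PCDHG (22.7%), 2 of 8 non-clustered (25%), 0 of 4 in PCDHA and 0 of 13 in PCDHB. The 2 groups of libraries did not overlap for 10 of the 59 members tested, beside 24% of all genes tested. The median log2 fold change of the 47 members was -0.41, beside -0.0031 for all genes with an adjusted p. Of the others, 12 were tested without an adjusted p and 7 were not tested, and PCDH11X and PCDHB1 had no read in any library. PCDH11Y is counted here without values.

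The summed counts of the clusters moved differently. Summed PCDHG had 4680, 5172 and 4129 normalized counts in EV and 13760, 12903 and 14302 in the libraries labelled HDAC8, a ratio of 2.93. All 3 libraries of the second group lay above all 3 EV libraries. Summed PCDHB had 592, 657 and 629 normalized counts in EV and 481, 439 and 499 in the libraries labelled HDAC8, a ratio of 0.756, and here the second group lay below EV. Summed PCDHA had 96.5, 84.1 and 38.4 normalized counts in EV and 118, 85 and 122 in the libraries labelled HDAC8, and the groups overlapped. These sums are descriptions and were not tested.

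**Figure D1:**
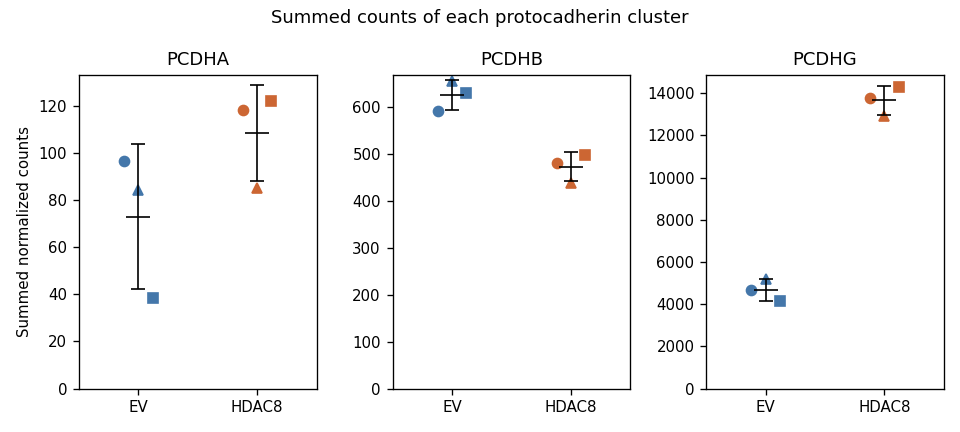
Summed normalized counts (linear axes from 0) of the PCDHA, PCDHB and PCDHG clusters in the 3 EV and the 3 libraries labelled HDAC8, with each point a library and the black bar the mean and SD. The PCDHG sum is higher in the libraries labelled HDAC8 (13655 ± 705 against 4660 ± 522, SD, n = 3 each), the PCDHB sum lower (473 ± 30.5 against 626 ± 32.2) and the PCDHA sums overlap.

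PCDHGA12 showed the largest change of the called PCDHG genes. It codes for the last of the A-type isoforms in cluster order and lies at chr5:141430507-141512975. It had 70.3, 88.7 and 76.8 normalized counts in EV and 1153.5, 1204.4 and 1014.9 in the libraries labelled HDAC8. The groups lay far apart with little spread within either (78.6 ± 9.36 and 1124 ± 98.1, SD, n = 3 each). The log2 fold change was 3.84 (DESeq2 adjusted p = 1.62e-42, SE 0.27), and it stayed between 3.76 and 3.93 when any 1 library was left out.

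PCDHGC3, a C-type isoform, was the most abundant clustered protocadherin in both groups. Per kb of its canonical transcript it had 418 normalized counts in EV and 2161 in the libraries labelled HDAC8, against 16.2 and 232 for PCDHGA12. Its normalized counts were 2129, 2355 and 1478 in EV and 10064, 9515 and 11272 in the libraries labelled HDAC8. The groups did not overlap, and it rose by 2.37 on the log2 scale (DESeq2 adjusted p = 1.52e-37, SE 0.18). Leaving out any 1 library moved it between 2.19 and 2.51. PCDHGC3 has 8 annotated transcripts on chr5:141475947-141512977. In one of them only 7.601% of the 150-base windows occur in no other member's transcript. That transcript consists largely of the exons the whole cluster shares, so the PCDHGC3 count can hold reads from constant exons of other members. Windows were compared with transcripts of the protein-coding members only, so pseudogenes and other genes were left out.

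The other C-type genes next to it had lower counts and more spread. PCDHGC5 had 16.8, 40.2 and 40.4 normalized counts in EV and 177, 38.9 and 218 in the libraries labelled HDAC8. Library HDAC8 2 lay at the EV level, so the groups overlapped. The gene was called (log2 fold change 2.15, DESeq2 adjusted p = 0.0348, SE 0.75), but its adjusted p was 0.0823 in edgeR and 0.222 in limma-voom, and the call was lost without any 1 library except HDAC8 2 (adjusted p = 0.0675 to 0.298). PCDHGC4 had 76.5, 57.9 and 49.3 normalized counts in EV and 410, 65.5 and 143 in the libraries labelled HDAC8. It overlapped in the same library and was not called (log2 fold change 1.75, DESeq2 adjusted p = 0.0562, SE 0.66); it is named here after its values were seen, as are PCDHGB6, PCDHGB4, PCDHB16 and PCDHB9.

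PCDHGA10 lies 3 genes before PCDHGA12 in the cluster. It had 127, 109 and 186 normalized counts in EV and 245, 311 and 320 in the libraries labelled HDAC8. The groups did not overlap, yet the gene was not called (log2 fold change 1.05, DESeq2 adjusted p = 0.0735, SE 0.41). With only genes of at least 10 counts in every library tested, its DESeq2 adjusted p was 0.0129. The adjusted p was 0.0769 in edgeR and 0.0616 in limma-voom. With 1 library left out it was 0.0608 to 0.259 in DESeq2.

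**Figure D2:**
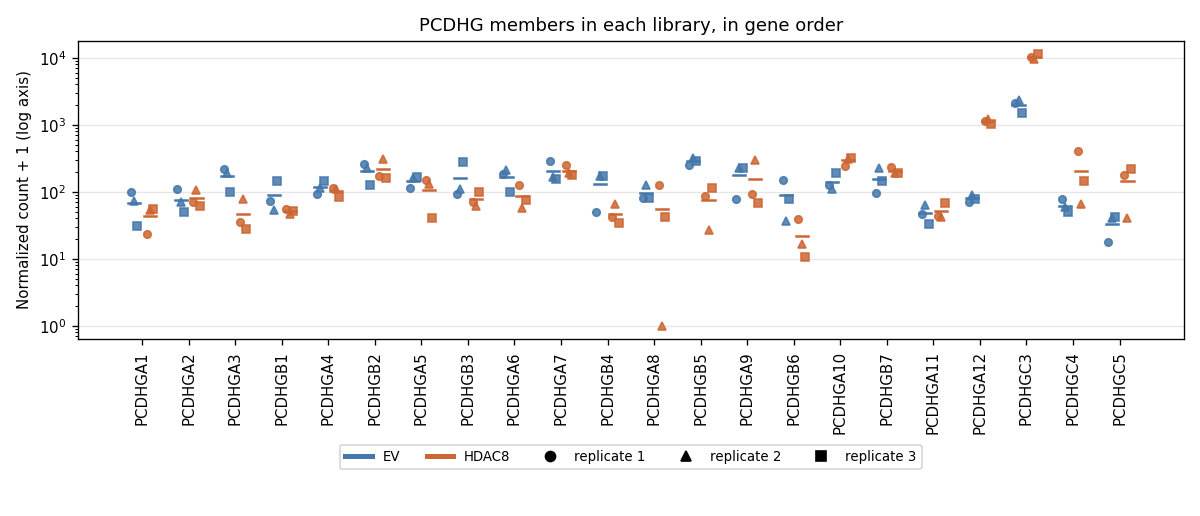
Normalized counts plus 1 (log axis) of the 22 PCDHG members from PCDHGA1 to PCDHGC5 in gene order; blue marks EV libraries, orange the libraries labelled HDAC8, symbols the replicate and short bars the means. At PCDHGA12 every orange point lies far above every blue one (1014.9 to 1204.4 against 70.3 to 88.7), and so it does at PCDHGC3 (9515 to 11272 against 1478 to 2355).

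PCDHGB5 and PCDHGA3 changed the other way. PCDHGB5, a B-type isoform at chr5:141397947-141512975, had 251, 316 and 285 normalized counts in EV and 85.5, 25.6 and 111 in the libraries labelled HDAC8. It was the most abundant PCDHG member after PCDHGC3 in EV per kb of transcript (59.7), and had 15.6 per kb in the other group. The groups did not overlap, and it fell by 1.94 on the log2 scale (DESeq2 adjusted p = 0.00455, SE 0.54), a 3.83-fold difference. Without EV 2 the adjusted p was 0.0609.

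PCDHGA3 had 215, 191 and 99.5 normalized counts in EV and 34.2, 75.8 and 27.2 in the libraries labelled HDAC8. Every library of the second group lay below every EV library, and it fell by 1.88 on the log2 scale (DESeq2 adjusted p = 0.0265, SE 0.63). This call was weaker than that of PCDHGB5. The adjusted p was 0.0569 in edgeR and 0.0653 in limma-voom, and without EV 1, EV 2, HDAC8 1 or HDAC8 3 it ran from 0.0595 to 0.222. PCDHGB6 and PCDHGB4 had log2 fold changes of -2.03 (adjusted p = 0.118) and -1.50 (adjusted p = 0.149) in DESeq2, and were not called. The remaining members of PCDHG, other than PCDHGC4 and PCDHGA10, had log2 fold changes between -1.06 and 0.38 and were not called.

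The higher and the lower calls lay in different stretches of the cluster. The first 15 genes, from PCDHGA1 to PCDHGB6, had a median log2 fold change of -0.80, with 3 fits above 0 and 12 below, and held both lower calls. The last 7 genes, from PCDHGA10 to PCDHGC5, had a median of 1.75, with 7 fits above 0, and held the 3 higher calls. Some fits on either side were smaller than their SE, among them PCDHGA4 (-0.19, SE 0.54) and PCDHGA9 (-0.20, SE 0.63) in the first stretch. In the last stretch they were PCDHGA11 (0.11, SE 0.79) and PCDHGB7 (0.38, SE 0.47). The place of this division was chosen after the values were seen, so it is a description without a test. Neighbours in the order share their constant exons. The canonical PCDHG transcripts had 48.48% to 56.83% of their 150-base windows in no other member's transcript. Reads from the shared part are divided between members by the counting software, so the separate values of PCDHG members depend on one another.

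**Figure D3:**
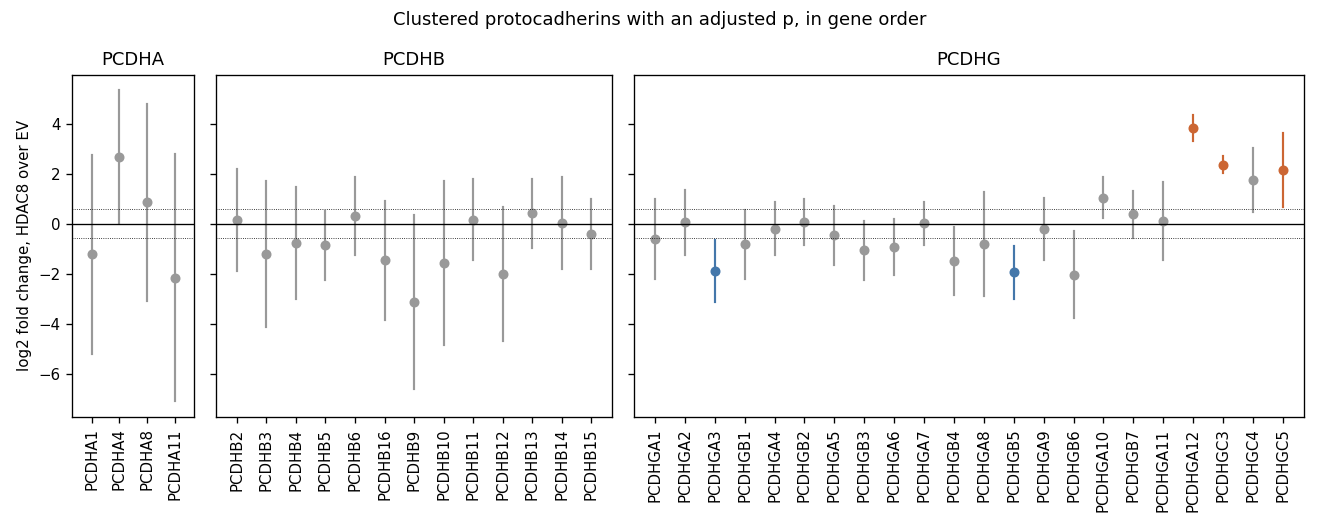
Log2 fold change of the libraries labelled HDAC8 over EV (DESeq2, points) with its 95% interval (lines) for the clustered members with an adjusted p, in gene order within PCDHA, PCDHB and PCDHG. Orange marks members called higher, blue called lower, grey not called, and dotted lines the fold change minimum of 0.58; the 3 orange points are among the last 4 of PCDHG, and all PCDHA and PCDHB points are grey.

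Most of the PCDHG sum moved with a pair of genes. PCDHGC3 made up 45.5%, 45.5% and 35.8% of the PCDHG sum in EV and 73.1%, 73.7% and 78.8% in the libraries labelled HDAC8. PCDHGA12 made up 1.69% ± 0.18 in EV and 8.27% ± 1.12 in the libraries labelled HDAC8 (SD, n = 3 each). The share of the other PCDHGA genes was 29.97% on average in EV and 8.94% in the other group, and that of the PCDHGB genes 24.04% and 5.02%. Without PCDHGC3 the ratio of the PCDHG sums was 1.26, and without PCDHGC3 and PCDHGA12 it was 0.866, with overlapping groups (2481, 2728 and 2574 against 2542, 2183 and 2016). The summed PCDHGB genes alone had 966, 1134 and 1221 normalized counts in EV and 693, 710 and 648 in the libraries labelled HDAC8, with every library of the second group below EV. Since these are shares of a sum, a larger PCDHGC3 lowers the shares of the other members.

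**Figure D4:**
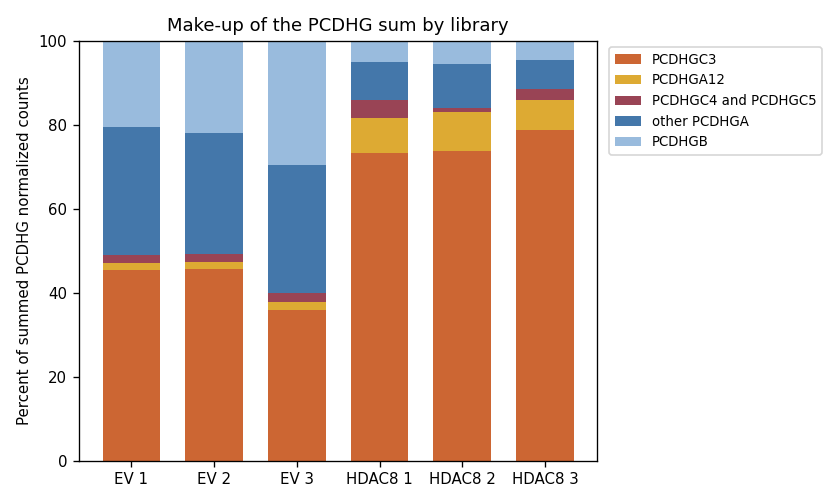
Percent of the summed PCDHG normalized counts (linear axis from 0 to 100) by member in each of the 6 libraries, stacked as PCDHGC3, PCDHGA12, PCDHGC4 with PCDHGC5, the other PCDHGA genes and the PCDHGB genes. PCDHGC3 takes 35.8% to 45.5% of the bar in EV and 73.1% to 78.8% in the libraries labelled HDAC8.

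PCDHA was close to silent at this depth. No member had a mean above 21.3 normalized counts, 11 of 15 were tested, 4 got an adjusted p, and none was called. PCDHA4 was the most abundant per kb of transcript over all 6 libraries, though PCDHA1 was above it in EV (3.28), with 1.07 normalized counts per kb in EV and 6.86 in the libraries labelled HDAC8. It had 0, 9.34 and 7.88 normalized counts in EV and 38.5, 29.7 and 42.5 in the libraries labelled HDAC8. The groups did not overlap, but a difference was not detectable at this depth by the test (log2 fold change 2.68, 95% interval 0.018 to 5.34, DESeq2 adjusted p = 0.206). PCDHA1 had 37.75, 4.67 and 10.8 normalized counts in EV and 0, 0 and 22.9 in the libraries labelled HDAC8 (adjusted p = 0.826 in DESeq2). PCDHA8 had 14.7, 11.2 and 0 normalized counts in EV and 15.4, 31.7 and 0 in the libraries labelled HDAC8 (adjusted p = 0.891 in DESeq2). Both overlapped between the groups. The canonical PCDHA transcripts had 39% to 52.65% of their windows in no other member's transcript. Counts this low thus also rest on how shared reads were divided.

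The PCDHB genes have no constant exons, and 82.07% to 100% of the windows of each lie in no other member's transcript. Their separate counts are thus less tied to each other. PCDHB pseudogenes were not among the transcripts compared. Of 16 members, 15 were tested, 13 got an adjusted p and none was called, with 5 fits above 0 and 8 below and a median log2 fold change of -0.77. PCDHB15 had 116, 102 and 86.7 normalized counts in EV and 88.9, 120 and 20.7 in the libraries labelled HDAC8, and was the most abundant per kb of transcript over all 6 libraries (25.6 in EV, where PCDHB5 had 26.1, and 19.3 in the other group). Its groups overlapped, and its log2 fold change was -0.41 (95% interval -1.80 to 0.98, DESeq2 adjusted p = 0.836). PCDHB5 had 122, 98.1 and 47.3 normalized counts in EV and 43.6, 39.9 and 64.2 in the libraries labelled HDAC8, with overlapping groups (log2 fold change -0.85, DESeq2 adjusted p = 0.539). PCDHB6 had 18.9, 55.1 and 65.0 normalized counts in EV and 57.3, 50.2 and 65.3 in the libraries labelled HDAC8 (log2 fold change 0.31, DESeq2 adjusted p = 0.906). The only PCDHB member whose groups did not overlap was PCDHB16, with 65.0, 49.5 and 42.4 normalized counts in EV and 0, 28.7 and 28.3 in the libraries labelled HDAC8 (log2 fold change -1.47, DESeq2 adjusted p = 0.542). PCDHB9 had the lowest log2 fold change among the PCDHB members with an adjusted p (-3.14, DESeq2 adjusted p = 0.281). The lower PCDHB sum was thus a sum over members none of which was called, and the highest mean of any member was 89.1 normalized counts.

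Of the 13 non-clustered protocadherins, 8 had an adjusted p, 2 were called lower and 0 higher. No member was called higher by edgeR or limma-voom either, and 0 were higher at an unadjusted p under 0.05 in DESeq2.

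PCDH18, a δ-type protocadherin on chromosome 4 (chr4:137518918-137532494, minus strand), had 330, 276 and 336 normalized counts in EV and 23.9, 71.7 and 154 in the libraries labelled HDAC8. The groups did not overlap, and the libraries labelled HDAC8 spread over a wide range. It fell by 1.92 on the log2 scale (DESeq2 adjusted p = 0.00889, SE 0.57), a 3.79-fold difference. Without EV 1 or EV 3 the adjusted p was 0.0709 or 0.0724.

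PCDH10, another δ-type member and a binding partner of the WAVE complex, had 0, 8.41 and 63.0 normalized counts in EV and 0 in all 3 libraries labelled HDAC8. EV 1 was at 0 as well, so the groups overlapped, and most of its reads came from EV 3. DESeq2 called it lower (adjusted p = 0.0400), and the call was lost without EV 2 (adjusted p = 0.0929) and without any 1 of the libraries labelled HDAC8 (0.0502 to 0.0801); without EV 3 it had too few counts to be tested, and edgeR and limma-voom did not test it. Its mean in EV, mostly from EV 3, was 8.02 times a floor of 3 counts per library.

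The most abundant non-clustered members were not called. PCDH7, a δ-type protocadherin that stood far above the rest, had 4915, 5535 and 4865 normalized counts in EV and 5272, 5462 and 5645 in the libraries labelled HDAC8. Its log2 fold change was 0.10 with a narrow interval (-0.17 to 0.37, DESeq2 adjusted p = 0.784). Per kb of transcript it had 582 and 622 normalized counts, above PCDHGC3 in EV (418) and below it in the libraries labelled HDAC8 (2161). PCDH1, an adhesion protein of airway epithelium, had 469, 783 and 678 normalized counts in EV and 1184, 624 and 1091 in the libraries labelled HDAC8. Library HDAC8 2 overlapped with EV, and the change on the log2 scale was 0.59 (SE 0.30, DESeq2 adjusted p = 0.211). The DESeq2 adjusted p was 0.0361 without HDAC8 2 and 0.166 to 0.612 without any other 1 library. PCDH9 had 351, 240 and 302 normalized counts in EV and 155, 222 and 110 in the libraries labelled HDAC8. Its groups did not overlap, and it was not called (log2 fold change -0.88, DESeq2 adjusted p = 0.175, SE 0.42).

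The remaining non-clustered members had low or scattered counts. PCDH12, known from endothelium, had 173, 89.7 and 35.5 normalized counts in EV and 188, 76.8 and 84.9 in the libraries labelled HDAC8 (DESeq2 adjusted p = 0.919). PCDH17 had 8.39, 29.9 and 8.87 normalized counts in EV and 30.8, 36.9 and 40.3 in the libraries labelled HDAC8, without overlap (log2 fold change 1.19, DESeq2 adjusted p = 0.603). PCDH19, a neuronal member known from X-linked epilepsy, had 55.6, 25.2 and 0 normalized counts in EV and 29.1, 0 and 19.6 in the libraries labelled HDAC8 (DESeq2 adjusted p = 0.894). PCDH8, PCDH15 and PCDH20 had mean values under 5 normalized counts.

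**Figure D5:**
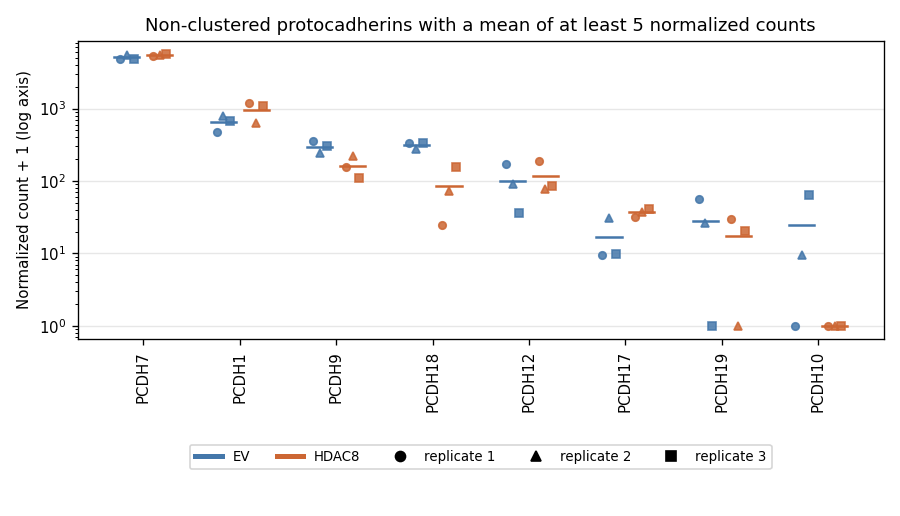
Normalized counts plus 1 (log axis) of the 8 non-clustered protocadherins with a mean of at least 5 normalized counts, ordered by mean; blue marks EV libraries, orange the libraries labelled HDAC8, symbols the replicate and short bars the means. PCDH7 lies highest, with 4865 to 5645 in both groups, PCDH18 is lower in the orange libraries (23.9 to 154 against 276 to 336), and PCDH10 is at 0 in all 3 of them.

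Genes known to act on clustered protocadherin promoters, and cohesin genes, were described as a list of 32. Of these, 2 were called higher and 2 lower (12.5%, beside 11% of all genes). DNMT1, the maintenance DNA methyltransferase, had 7696, 8842 and 7755 normalized counts in EV and 15347, 11979 and 13053 in the libraries labelled HDAC8 (log2 fold change 0.73, DESeq2 adjusted p = 8.94e-06). TRIM28, a corepressor, rose by 0.61 on the log2 scale (DESeq2 adjusted p = 0.0026), and the call was lost without EV 1 (adjusted p = 0.0629), EV 3 (0.0571) or HDAC8 1 (log2 fold change 0.46). TET1, which oxidises methylcytosine, fell by 0.96 (DESeq2 adjusted p = 0.00215, and 0.0643 without EV 1). The methyltransferase DNMT3B fell by 0.89 (DESeq2 adjusted p = 0.0107, and 0.0699 and 0.11 without EV 2 and EV 3). The cohesin genes SMC3, SMC1A and RAD21 had log2 fold changes of 0.46, 0.49 and 0.38 with DESeq2 adjusted p of 0.024, 0.0156 and 0.0218, under the fold change minimum. CTCF had a log2 fold change of -0.04 (adjusted p = 0.94 in DESeq2).

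Among 30 genes for proteins that bind protocadherins or relay their signals, 1 was called (3.33%, beside 11% of all genes). CYFIP2, a subunit of the WAVE actin regulatory complex, had 1069, 1279 and 1267 normalized counts in EV and 548, 303 and 540 in the libraries labelled HDAC8, and fell by 1.38 on the log2 scale (DESeq2 adjusted p = 1.50e-05). Among 22 genes that flank the clusters on chromosome 5, 20 had an adjusted p and 1 was called (5%, beside 11% of all genes). This was DND1, with 0, 57.0 and 10.8 normalized counts in EV and 0 in all 3 libraries labelled HDAC8 (DESeq2 adjusted p = 0.0453); the call was lost without EV 3 or any 1 library labelled HDAC8 (adjusted p = 0.0558 to 0.11), it had no adjusted p without EV 2, and edgeR and limma-voom did not test it. DIAPH1, a formin gene at chr5:141515016-141619055 on the opposite strand past the end of PCDHG, had 10771, 12915 and 11585 normalized counts in EV and 17439, 17894 and 16769 in the libraries labelled HDAC8. Its groups did not overlap, and its log2 fold change of 0.56 (DESeq2 adjusted p = 2.24e-04, SE 0.13) was under the minimum. DIAPH1 was not called and is named here after its values were seen.

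Of 21 other members of the cadherin superfamily, 17 had an adjusted p, and 4 were called higher and 0 lower (23.5%). Of all genes 11% were called, 5.57% as higher. DSC2 and DSG2, a desmosomal pair, had mean normalized counts of 538 ± 92.8 and 7870 ± 262 in EV and of 4424 ± 1026 and 17734 ± 2394 in the libraries labelled HDAC8 (SD, n = 3 each). Their log2 fold changes were 3.04 and 1.17 (DESeq2 adjusted p = 1.84e-43 and 5.28e-15). CELSR1, a planar polarity cadherin, and CDHR3 had log2 fold changes of 1.10 and 1.83 (DESeq2 adjusted p = 2.24e-09 and 7.40e-04). FAT and dachsous genes, the relatives with the largest extracellular parts, were not called.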

How the data were processed

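Paired-end RNA-seq of WM164 cells (3 EV, 3 HDAC8) was used. Per the labels and the study's methods, the authors trimmed reads with Trimmomatic 0.36, aligned them with STAR 2.7.3a and counted with RSEM 1.2.31. The deposited values are expected counts per gene, unscaled, in which RSEM divides reads shared by several genes. Build, annotation release and strand handling are not given in the sources used here.

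Rounded counts of 26162 genes (total of at least 10) were tested with DESeq2 1.42.0 in R 4.3.3 (two-sided Wald test, own size factors of 0.918 to 1.17, Benjamini-Hochberg over all genes, 5141 without an adjusted p). The thresholds, an adjusted p under 0.05 and a log2 fold change of 0.58 in size, follow the study's methods. The legend of its RNA-seq figure instead gives a p under 0.05 that was not corrected for multiple tests. Positions came from GENCODE 44 by Ensembl identifier. The floor was 3 counts (2.57 to 3.27 normalized), which covers counting error only. Intervals are 95% intervals of DESeq2.

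Members, lists and tests were chosen with earlier results of these data known. Named genes are HDAC8, called members, the 3 most abundant members per kb in each family, non-clustered members with a mean of at least 5 and called list genes. Genes outside this rule, among them DIAPH1, SMC3, SMC1A, RAD21 and CTCF, were named with their values known. Alternatives were edgeR 4.0.16 quasi-likelihood, limma-voom 3.58.1, other size factors and filters, a replicate block, a test against the minimum fold and each library left out. Fits were tested on simulated data. The value of 1 cell type marker is not reported here.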

Additional observations from a re-analysis of the deposited data

How the results depend on the processing

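Among the fits of named genes under the alternatives, 348 kept direction and side of the threshold, 34 lost a call, 2 gained one and 5 turned. PCDHGA12 and PCDHGC3 were called under all 13 alternatives (log2 fold change 3.76 to 3.93 and 2.19 to 2.51). Lower calls among clustered members were 1 in edgeR, 1 in limma-voom and 0 when tested against the fold minimum, and 0 to 3 when a library was left out. Higher calls among clustered members were 2 in edgeR, limma-voom, the replicate block and when tested against the fold minimum. They were 2 to 4 when a library was left out, and 5 with at least 10 counts in every library. Lower calls of non-clustered members were 1 in edgeR, limma-voom, the filter of at least 10 counts in every library, the replicate block and members with a mean of at least 50, 0 against the fold minimum, and 0 to 1 without 1 library; higher calls were 0 to 1. Flanking genes called were 0 in edgeR, limma-voom, the filter of at least 10 counts and the replicate block, and 0 to 1 without 1 library; partners 1 to 2 and regulators 2 to 4. Leaving out 1 library turned the log2 fold changes of 4 members that were not called: PCDHB15 ran from -0.88 to 0.039 (without HDAC8 3), PCDHB6 from -0.063 (without EV 1) to 0.63, PCDH19 from -1.46 to 0.36 (without EV 1), and PCDH12 from -0.30 (without HDAC8 1; -0.17 without EV 3) to 0.90. Replicate numbers did not pair the samples (correlations of same-numbered deviations -0.027, -0.066 and 0.04); with the replicate block PCDHGC5 (adjusted p = 0.0999) and PCDH10 (0.201) were no longer called. The causes were not tested. Low counts limit PCDHA and most PCDHB members.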

Other observations

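Rows with PCDH symbols that are not protein coding were left out of the counts of members. Of these, PCDHGB9P, a pseudogene within the PCDHG cluster, had 56.6, 25.2 and 46.3 normalized counts in EV and 25.7, 5.12 and 6.53 in the libraries labelled HDAC8 (log2 fold change -1.77, DESeq2 adjusted p = 0.362). PCDHGB8P had 7.34, 65.4 and 17.7 normalized counts in EV and 3.42, 46.1 and 4.36 in the libraries labelled HDAC8 (adjusted p = 0.845). PCDHA14, a pseudogene, had 8.39, 0 and 25.6 normalized counts in EV and 23.9, 32.8 and 0 in the other group (adjusted p = 0.906). PCDHB18P had 35.7, 18.7 and 25.6 normalized counts in EV and 0, 0 and 37.0 in the libraries labelled HDAC8 (adjusted p = 0.813). PCDHB19P had reads in all 3 EV libraries (10.5, 4.67 and 22.7 normalized counts) and none in the libraries labelled HDAC8, and DESeq2 gave no adjusted p for it.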
